A study of Mus musculus with 6 samples.

Results

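Of the 1418 rows of the deposited gene table whose symbol begins with Olfr, the prefix of mouse olfactory receptor genes, 29 were detected, 2.05%. They were chosen by their level: a gene counted as detected when its values, summed over all 6 libraries, reached 5. The sum spans both groups, so a gene could also reach it through either group alone, as described below. Another 1193 Olfr rows had no read in any library, and 196 had some reads but stayed under the threshold. The detected genes comprise 25 receptor genes and 4 annotated pseudogenes. The members just inside the threshold were Olfr103 (sum 5.92), Olfr369-ps1 (6.50) and Olfr827 (6.60), and the genes just outside it were Olfr432 (4.95), Olfr1445 (4.53) and Olfr1033 (4.33). By the same threshold 33.4% of all 50599 rows, and 57.9% of rows labelled protein-coding, were detected.

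Olfactory receptors are odorant-binding G-protein-coupled receptors and form the largest gene family of the mouse, arranged in clusters on many chromosomes. Each olfactory sensory neuron normally transcribes a single receptor gene, while the rest of the family is held in heterochromatin marked by methylated histone H3 and bound by HP1 proteins. In the neuron the receptor couples through the G protein subunit Golf (Gnal) to adenylyl cyclase 3 (Adcy3) and a cyclic-nucleotide-gated channel, and the chaperones Rtp1 and Rtp2 carry most receptors to the cell surface. Some receptors are also known outside the nose, among them Olfr2, an octanal receptor of mouse vascular macrophages. A gene of a closed cluster can in general gain reads from its own promoter or from transcription that continues out of an active neighbour, and this is why each member's position is given with its values.

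The RNA came from RAW264.7, a transformed mouse macrophage line, infected with a retrovirus carrying ∆Raf-1:ER, a Raf-1 oncoprotein fused to an oestrogen receptor domain, and selected with hygromycin B. The 4-OHT group received 100 nM 4-hydroxytamoxifen, the ligand that switches the fusion on and that the labels tie to oncogene-induced senescence. The vehicle group carried the same construct and received ethanol. Each group had 3 samples (A, B and C), collected on day 3, with 24 hours without serum before extraction. The labels do not say whether the selected cells are a single clone or whether the samples were separate cultures, so p-values measure the spread between these samples, which may be technical. Cells with 4-OHT and no construct were not analysed here.

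Between 11629150 and 15943722 reads per library were assigned to genes. All 12 macrophage markers checked had reads, and their summed normalized counts were 96820 to 121000 in 4-OHT libraries and 127700 to 131500 in vehicle libraries. Among them Csf1r, the receptor for the macrophage growth factor CSF-1, had 8550, 9661 and 9771 reads in 4-OHT libraries against 17954, 17540 and 22814 in vehicle libraries, and Itgam, an integrin subunit, had 1794, 1975 and 1908 in 4-OHT libraries against 468, 455 and 648 in vehicle libraries. The 8 markers of olfactory sensory neurons summed to 552.8 to 736.2 in 4-OHT libraries and 38.6 to 44.8 in vehicle libraries, nearly all of it Adcy3 and Gnal, which are described with the signalling genes. The other 6 had 10 reads in the 4-OHT libraries together and 9 in the vehicle libraries together: Omp, the olfactory marker protein, had 5 reads in each group, and Rtp1 had 0. The 7 general neuron markers summed to 4.53 to 19.7 in 4-OHT libraries and 1.95 to 5.93 in vehicle libraries. Snap25, a synaptic protein, had 10, 13 and 2 reads in 4-OHT libraries against 0, 1 and 1 in vehicle libraries. Tubb3 went the other way, with 0, 0 and 1 reads in 4-OHT libraries against 2, 3 and 2 in vehicle libraries. Map2 had 1, 4 and 0 against 0, 1 and 3, and Elavl4 0, 1 and 0 against 0, 1 and 1. Rbfox3 had 0, 0 and 1 against 0, 0 and 0, and Stmn2 and Syt1 were at 0. The part of these differences in the values of the receptor genes was not tested. The values used below are normalized counts, reads divided by the library's size factor. In these bulk libraries fewer cells that transcribe a gene and less RNA per cell cannot be told apart.

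The 29 genes together held 2963 reads. Their summed normalized counts were 587.9, 658.6 and 621.1 in 4-OHT libraries A, B and C, against 425.9, 366.9 and 349.6 in vehicle libraries A, B and C. The groups did not overlap, nor did they as reads per 1000000 assigned reads, with 42.7, 45.6 and 42.8 in 4-OHT libraries and 37.6, 31.4 and 30.4 in vehicle libraries. Leaving out Olfr32, Olfr755-ps1, Olfr98 and Olfr1457, chosen after their values were seen, the sums of the other 25 were 378.4, 423.8 and 400.1 in 4-OHT libraries and 375.2, 324.4 and 305.0 in vehicle libraries. On this scale the lowest 4-OHT library then stood just above the highest vehicle library. As reads per 1000000 assigned reads the groups of these 25 overlapped, with vehicle A above every 4-OHT library. The 196 genes under the threshold had 39, 57 and 37 reads in 4-OHT libraries and 45, 36 and 50 in vehicle libraries, and here the groups overlapped.

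**Figure D1:**
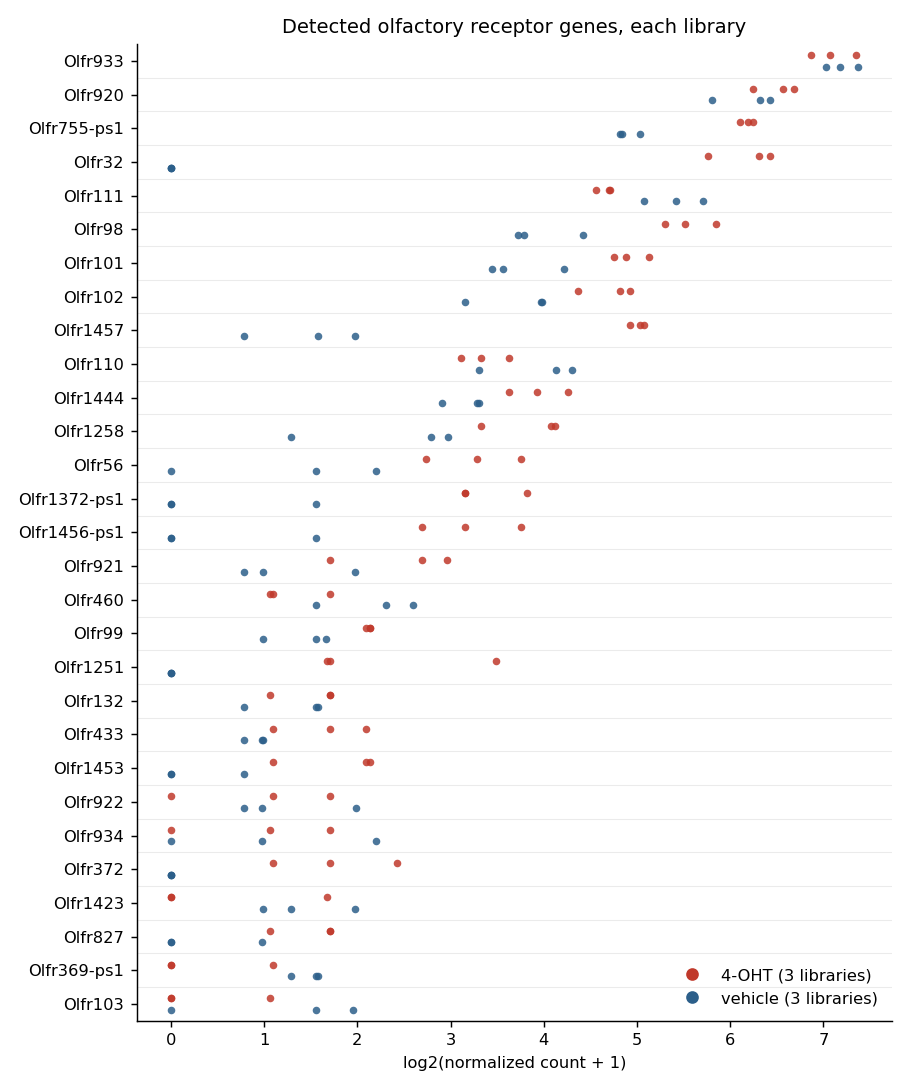
Level of each of the 29 detected olfactory receptor genes in every library, as log2(normalized count + 1) on the horizontal axis, with genes ordered by their sum; red points are the 3 4-OHT libraries and blue points, set lower in each row, the 3 vehicle libraries. Olfr933 and Olfr920 overlap between the groups at the top, while Olfr32 is at 0 in all 3 vehicle libraries and between 53.2 and 85.2 normalized counts in the 4-OHT libraries.

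The abundance was uneven. Olfr933 and Olfr920 alone took 45.5% of all member reads, 8 members had a sum of 100 or more, 7 lay between 20 and 100, and 14 lay under 20. Per length, the 9 members past the filter on low counts, described below, lay at or below the median gene past that filter. Olfr755-ps1 had the highest level, with a mean of 78.7 normalized counts per kb of exon in 4-OHT libraries and 31.8 in vehicle libraries, where the median gene had 79.5 in 4-OHT and 78.6 in vehicle libraries. Olfr933 had 30.5 in 4-OHT and 32.5 in vehicle libraries on this scale, and Olfr32 had 22.8 in 4-OHT and 0.0 in vehicle libraries.

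Setting 4-OHT against vehicle asks which receptor transcripts differed 3 days after the oncoprotein was switched on. In the limma fit over the 11828 genes past the filter on low counts, 9 members could be tested. Of these, 6 were higher with 4-OHT at an adjusted p under 0.05, beside 33.0% of all genes tested, and 1 was lower, beside 32.5%. Among the 6, Olfr32 and Olfr1457 passed the filter through their 4-OHT libraries, with vehicle reads of 0, 0 and 0 and of 3, 2 and 1. Olfr102 also needed a 4-OHT library to pass, because vehicle C, with 11 reads, lay under the filter's cutoff. So that no member was left out, the fit was repeated over all 16881 genes that reach the same sum of 5. There 13 of 29 members were higher, beside 26.9% of all genes, and 1 was lower, beside 22.9%. Of those 13, 6 would not have reached the sum of 5 with all 6 libraries at their vehicle level: Olfr32, Olfr1372-ps1, Olfr1456-ps1, Olfr1251, Olfr1453 and Olfr372. They are members because they were high with 4-OHT, so the counts and medians over members are a description and support no direction. The median log2 fold change over all 29 was 1.00, beside 0.033 over all genes in that fit. The 3 members at 0 in vehicle lie above that median both as fitted and at their floor of 3 reads, so using the floor could not move it. With reads scaled to library totals, which shifted the median log2 fold change over all genes by -0.304, the calls among the 9 were 6 higher and 2 lower, beside 2259 higher and 6548 lower over all genes, where the authors' scaling gave 3902 and 3848. The groups did not overlap, with 4-OHT above, for 17 members (31.2% of all genes), and with 4-OHT below for 2 (26.6%). By the authors' deposited table, 11 members have a positive log2 fold change with an adjusted p under 0.05 (23.4% of its genes with an adjusted p) and 1 a negative one (19.2%).

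**Figure D2:**
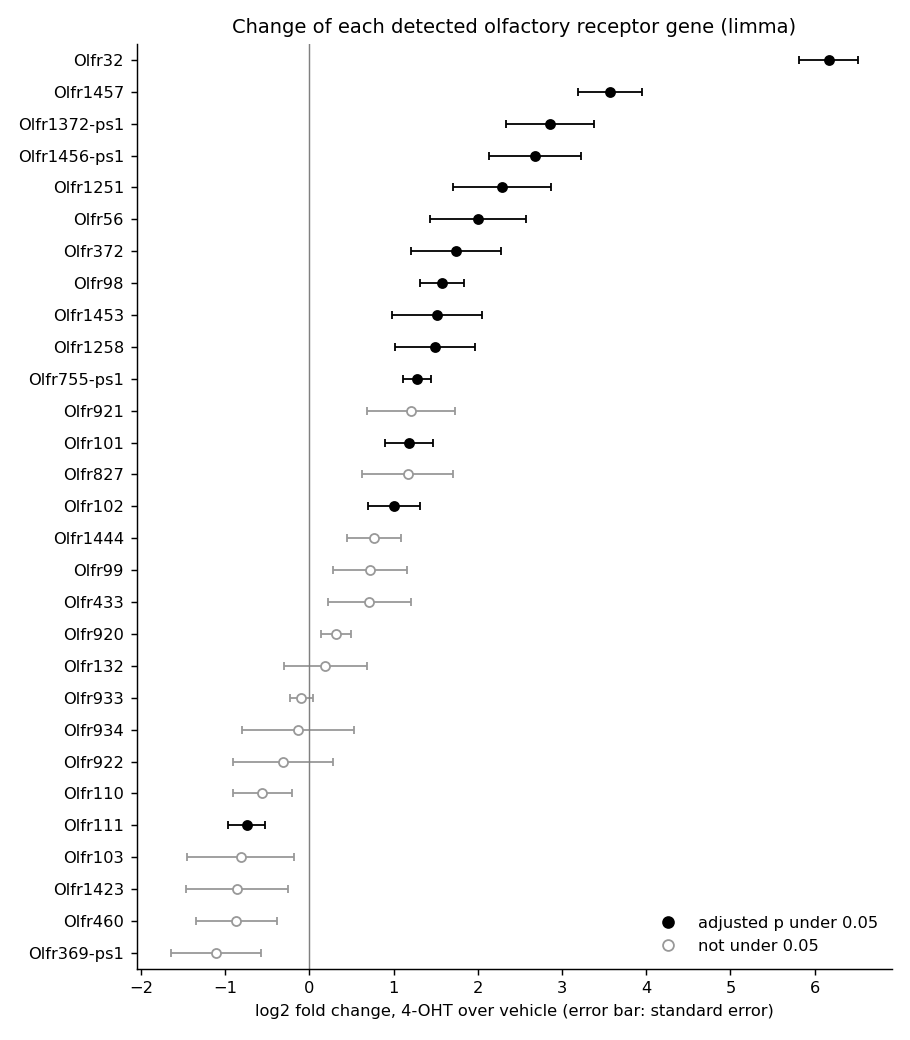
Log2 fold change of 4-OHT over vehicle for each of the 29 genes (points) with its standard error (bars), from the limma fit over all genes with a sum of 5 or more; filled points have an adjusted p under 0.05. Olfr32 stands at 6.17, Olfr1457 at 3.57, 13 filled points lie to the right of 0, and the filled point to its left is Olfr111.

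Olfr32 changed most. It lies on the minus strand of chromosome 2 at chr2:90136273-90142296 (GRCm38), in a cluster of Olfr genes whose other detected members are Olfr1251 and Olfr1258. It had 47, 78 and 69 reads in 4-OHT libraries A, B and C, against 0, 0 and 0 in the vehicle libraries. Every 4-OHT library was above every vehicle library, and Olfr32 was 82.6-fold higher when 3 reads were taken for the vehicle group in place of 0. The exact binomial lower limit of the ratio of reads for Olfr32 was below this, at 66.55 (counting error only). Its fitted log2 fold change was 6.17 ± 0.34 (standard error), with an adjusted p of 3.35e-08 (limma). With no vehicle read that value is set by the pseudocount: it was 4.23 with a pseudocount of 4 and 7.16 with 0.5, and 9.21 in the edgeR fit. No expressed gene outside the receptor family lies within 50 kb of it. The nearest expressed gene upstream is Ptprj, a receptor tyrosine phosphatase, 287 kb away, with 1219, 1624 and 1462 reads in 4-OHT libraries against 1650, 1631 and 2393 in vehicle libraries and a log2 fold change of -0.047 (adjusted p = 0.628). The nearest downstream is Tnks1bp1, 5060 kb away. Of the 75-base windows of its transcripts, 1.99% also occur in another gene.

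The promoter stretch of Olfr32 is shown because its annotated start lies 3 bases from the 5′ end of the row in the table, so both sources place the start of the gene there. It runs from 250 bases before to 50 bases after the RefSeq start (GRCm38.p6, chr2:90142244-90142543, minus strand), and none of the 7 motifs searched, named further on, is in it, so it has no capitals.
Olfr32: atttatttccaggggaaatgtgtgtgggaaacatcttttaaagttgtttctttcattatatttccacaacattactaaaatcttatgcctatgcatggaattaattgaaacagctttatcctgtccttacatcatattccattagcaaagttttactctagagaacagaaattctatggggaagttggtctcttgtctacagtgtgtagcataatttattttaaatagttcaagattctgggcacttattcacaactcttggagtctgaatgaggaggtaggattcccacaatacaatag

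Olfr1457 and Olfr1456-ps1 lie next to each other on the minus strand of chromosome 19, 14.0 kb apart, at chr19:13093379-13097891 and chr19:13078818-13079335. Olfr1457 had 28, 30 and 26 reads in 4-OHT libraries, against 3, 2 and 1 in vehicle libraries. The groups were far apart, with a ratio of summed reads, scaled by size factors, of 17.9 (95% exact binomial interval 7.88 to 50.1, counting error only). Its log2 fold change was 3.57 ± 0.37 (standard error) with an adjusted p of 6.06e-06 (limma), and ran from 2.60 with a pseudocount of 4 to 4.16 with DESeq2. Olfr1456-ps1, a receptor pseudogene downstream of it, had 11, 5 and 7 reads in 4-OHT libraries, against 2, 0 and 0 in vehicle libraries. Here too no library of the groups overlapped, and the log2 fold change was 2.68 ± 0.54 (adjusted p = 0.00115, limma over genes with a sum of 5 or more). Both sequences are free of shared windows, with 0.0% of 75-base windows found in another gene. The nearest expressed gene that is not a receptor is RP24-84O13.9, an unnamed transcript 187 kb from Olfr1457 and 172 kb from Olfr1456-ps1, which had 12, 5 and 12 reads in 4-OHT libraries and 11, 15 and 19 in vehicle libraries.

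The promoter stretch of Olfr1457 (RefSeq, GRCm38.p6, chr19:13095597-13095896, minus strand) is shown because the gene changed strongly with no expressed neighbour near. Capitals mark TTTATA, which is TATAAA on the opposite strand, 180 bases before the start, and TGATTCA, a match to the AP-1 letters TGANTCA, 66 bases before it. The RefSeq start lies 2245 bases inside the row's 5′ end, so these letters need not be where its reads begin.
Olfr1457: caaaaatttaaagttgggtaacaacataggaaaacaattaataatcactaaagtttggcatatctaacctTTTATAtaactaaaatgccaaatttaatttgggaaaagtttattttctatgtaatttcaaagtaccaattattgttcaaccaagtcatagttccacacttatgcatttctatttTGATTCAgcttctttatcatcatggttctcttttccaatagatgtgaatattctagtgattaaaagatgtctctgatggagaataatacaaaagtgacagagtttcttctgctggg

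The largest cluster was on chromosome 17, within the extended major histocompatibility complex, where 9 of 41 Olfr rows between 37262711 and 38134526 were detected. Its 5 members nearest H2-M3, a class Ib molecule that presents formylated peptides, are grouped here by a cut not set in advance. Of these 5, 4 were called higher with 4-OHT in the fit over genes with a sum of 5 or more, beside 26.9% of all genes. In the same fit Olfr103, the next nearest at 59.8 kb, had a log2 fold change of -0.82 and was not called. No other member of the cluster was called higher, and Olfr111 was called lower. H2-M3 lies on the plus strand at chr17:37270220-37274484 and had 924, 925 and 941 reads in 4-OHT libraries, against 675, 623 and 1034 in vehicle libraries. After scaling it was higher in every 4-OHT library, with a log2 fold change of 0.63 ± 0.07 and an adjusted p of 1.13e-05 (limma).

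Olfr755-ps1, a receptor pseudogene, begins 2.16 kb downstream of H2-M3 on the same strand, at chr17:37276648-37278105. It had 68.0, 72.1 and 74.8 normalized counts in 4-OHT libraries, against 27.3, 27.7 and 31.7 in vehicle libraries, with no overlap. Its log2 fold change was 1.28 ± 0.16 (adjusted p = 2.42e-05, limma). Set against its neighbour per kb of exon, it stood at 10.9% of the level of H2-M3 in 4-OHT libraries and at 6.78% in vehicle libraries.

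Olfr98 lies on the other side of H2-M3, 6.47 kb from it and on the opposite strand, at chr17:37262711-37263749. It had 56.6, 44.8 and 38.5 normalized counts in 4-OHT libraries, against 20.5, 12.9 and 12.3 in vehicle libraries. The groups did not overlap, and the log2 fold change was 1.58 ± 0.25 (adjusted p = 0.000181, limma). Upstream of it on its own strand, 3.33 kb away, lies Gm25104, annotated as a small nuclear RNA, with 16, 16 and 19 reads in 4-OHT libraries against 3, 6 and 5 in vehicle libraries and a log2 fold change of 1.997 ± 0.33 (adjusted p = 0.000253). The value of Olfr98 is uncertain, because 47.2% of its 75-base windows also occur in Olfr97, Olfr99, Olfr107 or Gm20429. Gm20429 covers 34.1% of its exon on the opposite strand and had 1 read in all 6 libraries.

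**Figure D3:**
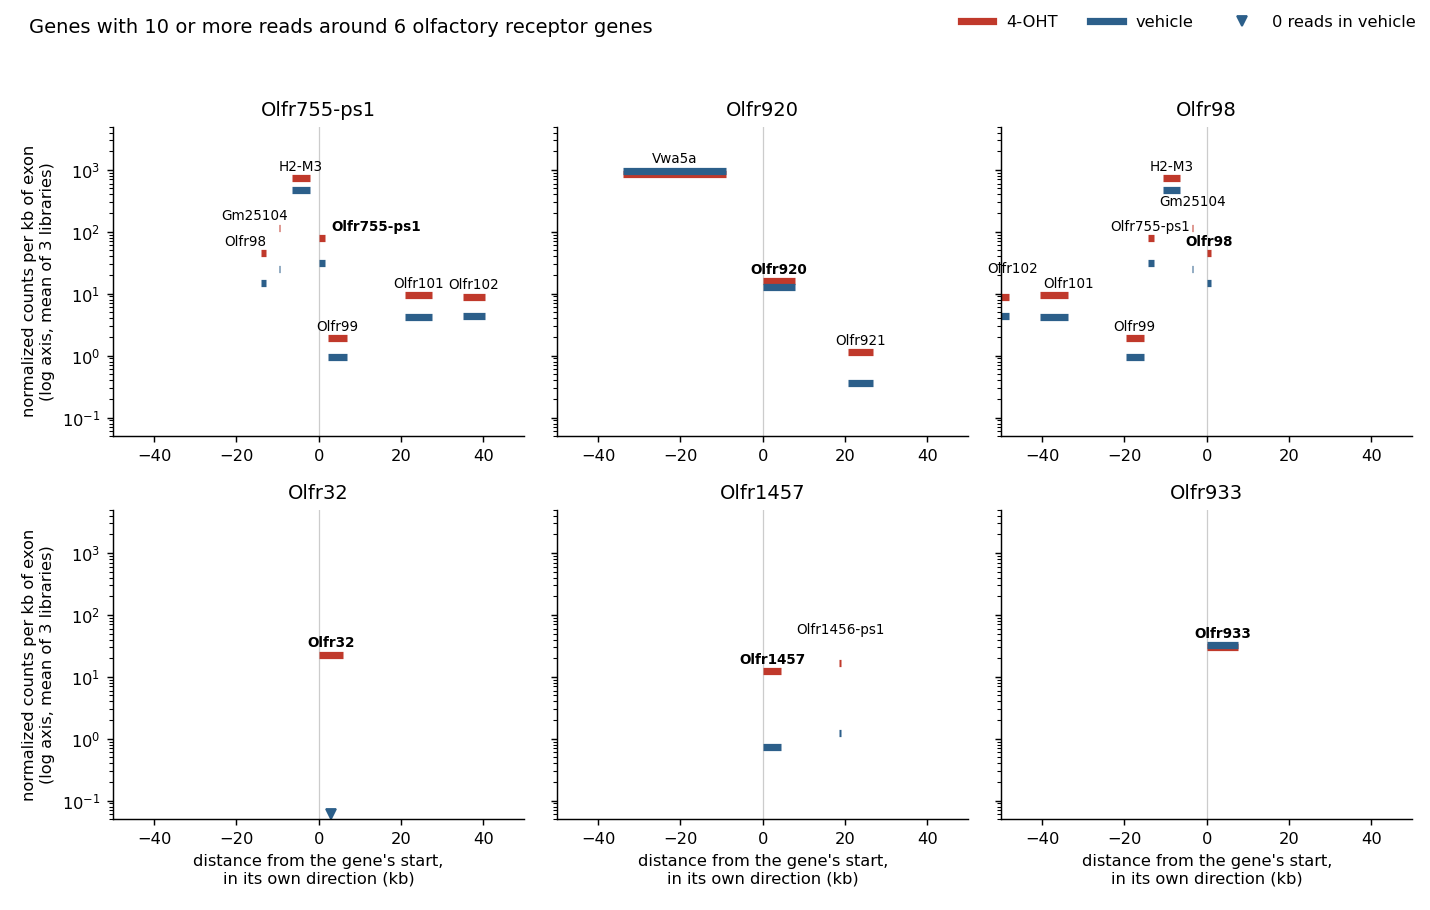
Genes with 10 or more reads within 50 kb of 6 receptor genes, drawn at their distance (kb) from the start of the gene named above each panel, in that gene's own direction, and at their mean level in normalized counts per kb of exon on a log axis; red bars are 4-OHT, blue bars vehicle, and the triangle marks 0 reads. Olfr755-ps1 and Olfr98 have H2-M3 within 10 kb and Olfr920 has Vwa5a, while Olfr32 and Olfr933 stand alone and Olfr1457 has only Olfr1456-ps1 beside it.

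On the far side of Olfr755-ps1 from H2-M3, Olfr99, Olfr101 and Olfr102 follow on the minus strand, 4.56, 23.1 and 37.3 kb from H2-M3. Olfr101 had 26.1, 28.4 and 34.0 normalized counts in 4-OHT libraries, against 17.5, 9.89 and 10.8 in vehicle libraries. Its groups did not overlap, with a log2 fold change of 1.182 ± 0.27 (adjusted p = 0.00221, limma). Olfr102 had 29.5, 19.7 and 27.2 normalized counts in 4-OHT libraries and 14.6, 14.8 and 7.93 in vehicle libraries, again without overlap, and a log2 fold change of 1.00 ± 0.30 (adjusted p = 0.0108). Olfr99 was low, with 3, 3 and 3 reads in 4-OHT libraries and 2, 1 and 3 in vehicle libraries, and its log2 fold change of 0.72 had an adjusted p of 0.203 (limma over genes with a sum of 5 or more). Olfr101 and Olfr102 share 5.96% and 7.83% of their windows with other genes, chiefly each other.

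The promoter stretches of Olfr98 and Olfr99 (RefSeq, GRCm38.p6, chr17:37263613-37263912 and chr17:37280369-37280668, both minus strand) are shown because, of the 23 members with a RefSeq promoter, they are those that hold the letters CCCNNGGGA. The RefSeq start lies 87 bases inside the row's 5′ end in Olfr98 and 3042 bases inside it in Olfr99. Early B-cell factors, known in the nose as Olf-1, bind such letters in genes of olfactory neurons. Capitals mark the match, which reads on both strands, and in Olfr98 they begin with an overlapping match to GAAANNGAA on the opposite strand.
Olfr98: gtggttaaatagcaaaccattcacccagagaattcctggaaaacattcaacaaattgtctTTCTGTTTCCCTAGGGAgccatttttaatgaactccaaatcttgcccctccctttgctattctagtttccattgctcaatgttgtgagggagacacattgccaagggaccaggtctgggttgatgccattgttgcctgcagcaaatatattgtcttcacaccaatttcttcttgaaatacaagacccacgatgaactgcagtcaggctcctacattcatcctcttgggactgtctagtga
Olfr99: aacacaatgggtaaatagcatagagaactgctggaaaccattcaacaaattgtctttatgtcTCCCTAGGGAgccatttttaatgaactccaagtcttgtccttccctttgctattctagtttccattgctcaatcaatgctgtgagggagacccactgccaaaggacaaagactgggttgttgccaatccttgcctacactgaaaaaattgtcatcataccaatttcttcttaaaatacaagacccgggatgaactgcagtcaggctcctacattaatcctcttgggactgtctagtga

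Olfr111 was the member that was lower with 4-OHT. It lies on the plus strand of the same cluster, 234 kb from H2-M3, at chr17:37508030-37532449. It had 22.7, 25.1 and 24.9 normalized counts in 4-OHT libraries, against 41.9, 32.6 and 51.2 in vehicle libraries. The groups did not overlap, and the log2 fold change was -0.74 ± 0.21 (adjusted p = 0.00807, limma). Olfr110, 7.82 kb upstream on the same strand, had 9.06, 7.65 and 11.3 normalized counts in 4-OHT libraries and 16.6, 8.90 and 18.7 in vehicle libraries. Its groups overlapped, and its log2 fold change of -0.56 had an adjusted p of 0.208 (limma over genes with a sum of 5 or more). The pair share sequence, 17.4% of the windows of Olfr111 and 26.7% of those of Olfr110, so their reads are not fully separable. H2-M2, a class Ib gene 24.5 kb upstream of Olfr111 on the opposite strand, had 1, 1 and 3 reads in 4-OHT libraries and 6, 9 and 17 in vehicle libraries. Its log2 fold change was -1.84 (adjusted p = 0.00495, limma over genes with a sum of 5 or more).

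The most abundant members, on chromosome 9, did not pass the test. Olfr933 had 133.7, 161.7 and 115.6 normalized counts in 4-OHT libraries, against 164.7, 143.4 and 129.8 in vehicle libraries. The ranges overlapped, and the log2 fold change was -0.098 ± 0.14 (adjusted p = 0.552, limma). With reads scaled to library totals the value for Olfr933 was -0.40 with an adjusted p of 0.0112, so the call depends on the scaling. Its nearest expressed gene, Vwa5a, a protein with a von Willebrand factor A domain, ends 229 kb upstream.

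Olfr920 lies nearer, 8.96 kb downstream of Vwa5a on the same strand, at chr9:38752299-38760117. It had 74.8, 93.9 and 102.0 normalized counts in 4-OHT libraries, against 78.9, 85.1 and 54.8 in vehicle libraries. The groups overlapped, and its log2 fold change was 0.32 ± 0.18 (adjusted p = 0.149, limma). Vwa5a had 4086, 3998 and 4266 normalized counts in 4-OHT libraries against 4698, 4657 and 4943 in vehicle libraries, a log2 fold change of -0.21 ± 0.05 (adjusted p = 0.00309). Per kb of exon Olfr920 stood at 1.88% of Vwa5a in 4-OHT libraries and at 1.31% in vehicle libraries. Olfr921, 13.0 kb further on, had 6, 5 and 2 reads in 4-OHT libraries and 3, 1 and 1 in vehicle libraries, and was not called (adjusted p = 0.072, limma over genes with a sum of 5 or more), though it was without 4-OHT C (0.0306) or vehicle A (0.0435).

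Of the members too low for the filter, 7 were called higher in the fit over all genes with a sum of 5 or more. Olfr1456-ps1 is described above. Olfr1372-ps1, on chromosome 11, had 7, 12 and 7 reads in 4-OHT libraries, against 2, 0 and 0 in vehicle libraries, with a log2 fold change of 2.86 ± 0.52 (adjusted p = 0.000544). Its groups did not overlap, and the nearest expressed gene, Ppp2ca, a catalytic subunit of protein phosphatase 2A, is 26.9 kb away on the opposite strand.

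Olfr1258 and Olfr1251 share the chromosome 2 cluster with Olfr32. Olfr1258 had 8, 15 and 14 reads in 4-OHT libraries, against 7, 6 and 2 in vehicle libraries, and a log2 fold change of 1.49 ± 0.47 (adjusted p = 0.0186). Without 4-OHT B its adjusted p was 0.118, without 4-OHT C 0.078 and without vehicle C 0.0713. Olfr1251 had 2, 2 and 9 reads in 4-OHT libraries and none in vehicle libraries, at least 5.54-fold higher with 3 reads taken for vehicle (adjusted p = 0.00547). That bound rests on 4-OHT C, and without this library it is 2.54-fold, with a log2 fold change of 1.69 (adjusted p = 0.0176) against 2.29 with it. The 95% exact binomial lower limit of its ratio of reads is 3.89 (counting error only). Between the 3 detected genes of this cluster 19 further Olfr rows stayed under the threshold. The summed normalized counts of the 3 were 64.6, 104 and 104 in 4-OHT libraries and 6.82, 5.93 and 1.44 in vehicle libraries.

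Olfr56 is annotated across 156.5 kb of chromosome 11, and its span covers a group of interferon-inducible GTPase genes. It had 5, 8 and 11 reads in 4-OHT libraries, against 2, 0 and 5 in vehicle libraries, and a log2 fold change of 2.003 ± 0.57 (adjusted p = 0.0102). After scaling the groups did not overlap, but without 4-OHT B the adjusted p was 0.0696 and without 4-OHT C it was 0.0569. Inside its span Ifi47, on the same strand, had 98, 114 and 112 reads in 4-OHT libraries and 103, 96 and 142 in vehicle libraries, a log2 fold change of 0.28 (adjusted p = 0.0434, and -0.024 with library totals as scaling), and it shares 2.45% of the exon bases of Olfr56. The 9930111J21Rik1 and 9930111J21Rik2 rows, on the opposite strand, had log2 fold changes of 0.06 and 0.20 and were not called. Gm12185 and Tgtp2, also overlapping, had 23 and 17 reads over all libraries.

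Olfr1453 and Olfr372 were called on very few reads and are named here after their values were seen. Olfr1453 had 1, 3 and 3 reads in 4-OHT libraries, against 0, 0 and 1 in vehicle libraries (log2 fold change 1.52, adjusted p = 0.0337). It lost its call in the edgeR fit over the same genes (adjusted p = 0.0521) and without 4-OHT B (0.0793), 4-OHT C (0.0806), vehicle A (0.0968) or vehicle B (0.0957). Olfr372 had 2, 4 and 1 reads in 4-OHT libraries and none in vehicle libraries, at least 2.98-fold higher with 3 reads taken for vehicle, with an exact binomial lower limit of 1.84 (adjusted p = 0.0167). It shares 20.7% of its windows with Olfr373. Its nearest expressed neighbour, Cyp4f18, a cytochrome P450 that oxidises leukotriene B4, lies 31.6 kb upstream on the opposite strand and had 15, 28 and 27 reads in 4-OHT libraries against 1, 1 and 0 in vehicle libraries (log2 fold change 4.05, adjusted p = 8.84e-06).

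Olfr1444, on chromosome 19, had 16, 13 and 10 reads in 4-OHT libraries, against 9, 9 and 9 in vehicle libraries. The scaled groups did not overlap, but its log2 fold change of 0.77 had an adjusted p of 0.0646, and 0.0463 without 4-OHT C. Lpxn, the adaptor protein leupaxin, lies 23.5 kb upstream on the same strand and had a log2 fold change of 0.28 (adjusted p = 0.00037), and -0.024 with library totals as scaling. Olfr460 ends 0.551 kb from the end of Clec5a, a myeloid C-type lectin receptor on the opposite strand. It had 2, 1 and 1 reads in 4-OHT libraries and 2, 4 and 7 in vehicle libraries, a log2 fold change of -0.87 (adjusted p = 0.157), where Clec5a had 0.39 (adjusted p = 0.000199). The other 8 members, Olfr132, Olfr433, Olfr922, Olfr934, Olfr1423, Olfr827, Olfr369-ps1 and Olfr103, had 6 to 10 reads each and were not called. Among them the groups did not overlap for Olfr433 and Olfr827, with 4-OHT above, and for Olfr369-ps1, with 4-OHT below. Olfr1423 passed without 4-OHT B (adjusted p = 0.0461) and Olfr369-ps1 without 4-OHT A (0.0344), both as lower.

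Set together, 6 of the 29 detected genes (20.7%) overlapped an expressed gene outside the family or lay within 10 kb of such a gene, against 25 of the 1389 Olfr rows under the threshold (1.80%). An expressed gene on the same strand, either upstream or overlapping, was found for 4 (13.8%), against 2 (0.144%). It was found for 2 (6.90%), against 0, where an expressed gene had to average 10 or more reads per 1000000 (CPM). Within 50 kb the numbers were 14 of 29 (48.3%) and 144 of 1389 (10.4%). The 15 members farther than 50 kb from any expressed gene, at 59.8 to 1240 kb, held 53.3% of member reads, and 34.2% without Olfr933. Of these 15, 6 were called higher and 1 lower, beside 26.9% and 22.9% of all genes, with a median log2 fold change of 0.19. Of the 6 within 10 kb, 3 were called higher, with a median of 1.00, and of the 8 between these distances 4 were called higher, with a median of 1.09. In both of these groups the limma fit called 0 lower, also at an unadjusted p under 0.05. The log2 fold changes of member and nearest neighbour within 10 kb had the same sign in 4 of 6 pairs, and with library totals as scaling in 3 of 6. Of these 6 members, Olfr98, Olfr755-ps1 and Olfr99 lie in a single locus around H2-M3, so neither members nor pairs are independent. Olfr755-ps1 and Olfr99 are both paired with H2-M3. Gm25104, paired with Olfr98, counts as expressed through its 4-OHT libraries, with 3, 6 and 5 reads in vehicle libraries. Whether the reads of a member begin at its own promoter or continue from a neighbour was not tested, because the table gives 1 value per gene and its handling of strand is not given in the sources used here.

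**Figure D4:**
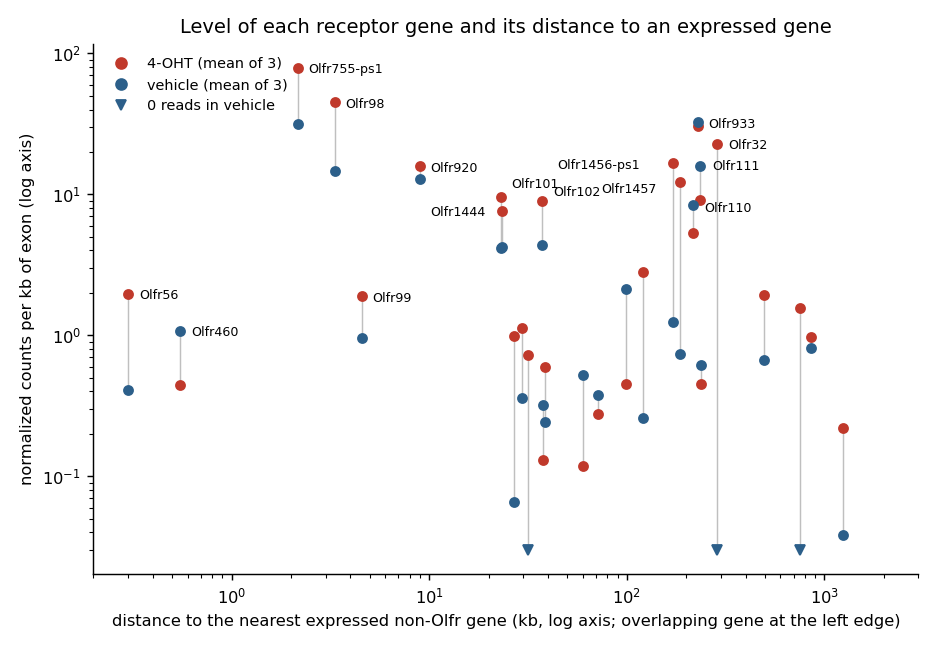
Mean level of each of the 29 genes in normalized counts per kb of exon (log axis) against the distance in kb to the nearest expressed gene outside the family (log axis); red points are 4-OHT, blue points vehicle, triangles mark 0 reads in vehicle, and a line joins the points of a gene. Olfr755-ps1, Olfr98 and Olfr920 lie within 10 kb of an expressed gene, while Olfr933, Olfr32, Olfr1457 and Olfr111 lie 187 kb or more from any and have means of 30.5, 22.8, 12.3 and 9.17 in 4-OHT libraries.

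RefSeq gave a promoter stretch for 23 of the 29 members. In 16 of the 23 the RefSeq start lies over 1 kb inside the row's 5′ end, so most of these stretches lie within the gene rows and need not be where reads begin. The motifs searched on both strands were CCCNNGGGA (early B-cell factors), TAATTA (homeodomain factors such as Lhx2), TGANTCA (AP-1), CCGGAAG (ETS factors), GAAANNGAA (interferon response), TATAAA and CACGTG (E-box). CCCNNGGGA was found in 2 of 23 (8.70%), 2.38% of the other Olfr promoters and 6.56% of all promoters. TGANTCA was found in 3 of 23 (13.0%, Olfr1457, Olfr56 and Olfr934), 13.5% of other Olfr promoters and 7.81% of all, and GAAANNGAA in 4 (17.4%), 15.4% and 8.56%. TAATTA was found in 4 (17.4%), 18.6% of other Olfr promoters and 5.29% of all, and TATAAA in 9 (39.1%), 41.1% and 13.6%. Neither CCGGAAG nor CACGTG was found in any of the 23, beside 0.0% and 2.16% of other Olfr promoters and 8.86% and 7.15% of all. A match describes letters and is not a binding site.

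Beyond the receptors, genes of the olfactory signalling pathway were examined from a list of 18, of which 17 are in the table and 9 passed the filter. Of these 9, 6 were higher with 4-OHT and 1 lower, beside 33.0% and 32.5% of all genes tested. Among the 6, Pde1c passed the filter through its 4-OHT libraries, with 6, 5 and 6 reads in vehicle libraries. Gnal, with 11, 8 and 14 reads in vehicle libraries, also needed a 4-OHT library to pass. The count is therefore a description and supports no direction. Adcy3, the cyclase of the olfactory cilium, had 510.8, 689.2 and 639.2 normalized counts in 4-OHT libraries, against 33.1, 27.7 and 31.0 in vehicle libraries. The groups were far apart, with a log2 fold change of 4.27 ± 0.13 (adjusted p = 3.62e-10, limma). Pde1c, a calmodulin-dependent phosphodiesterase of the same cilium, had 207.3, 217.4 and 160.9 in 4-OHT libraries, against 5.85, 4.95 and 4.33 in vehicle libraries, and a log2 fold change of 5.02 ± 0.20 (adjusted p = 2.76e-09). Gnal had 36.3, 43.7 and 40.8 in 4-OHT libraries, against 10.7, 7.91 and 10.1 in vehicle libraries, and a log2 fold change of 1.97 ± 0.23 (adjusted p = 1.64e-05). Slc12a2, a chloride importer, and Gnb1, a G protein beta subunit, were higher by 0.49 and 0.19 on the log2 scale, and Pde4a, a phosphodiesterase, was lower at -0.27. With library totals as scaling 4 of the list were called higher and 3 lower, and Gnb1 turned to -0.12.

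The parts of the pathway that define the neuron had few or no reads. The channel gene Cnga2 had 1 read in all libraries, Cnga4 and the exchanger gene Slc24a4 had 0, and Ano2, the olfactory chloride channel, had 2. Of 13 genes for receptor transport and mature olfactory neurons, 0 passed the filter, and Rtp1, Rtp2, Cyp2g1, Ncam1 and Obp1a had 0 reads. Cbr2, a carbonyl reductase from that list, had 6, 1 and 2 reads in 4-OHT libraries and 11, 7 and 17 in vehicle libraries and was lower in the fit over genes with a sum of 5 or more (log2 fold change -1.51, adjusted p = 0.0231). Rtp4, an interferon-inducible relative of Rtp1, had 1129, 1124 and 1226 normalized counts in 4-OHT libraries, against 457.1, 536.0 and 519.0 in vehicle libraries, a log2 fold change of 1.20 ± 0.07 (adjusted p = 5.60e-08). It was the single gene called higher among 7 tested accessory proteins of macrophages. Reep5 was the single gene called lower (log2 fold change -0.23), at an adjusted p of 0.050, and edgeR and DESeq2 called 0 of the list lower. Olfr2 had 1 read, in 4-OHT C.

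**Figure D5:**
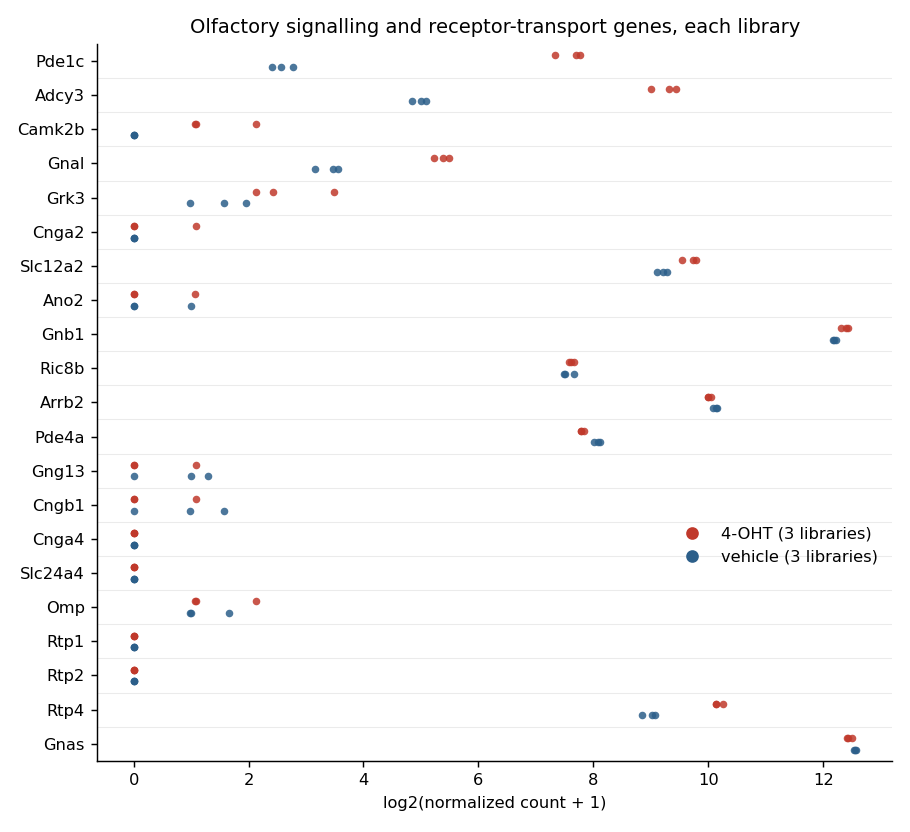
Log2(normalized count + 1) of 16 of the 17 olfactory signalling genes in the table and of Omp, Rtp1, Rtp2, Rtp4 and Gnas in every library; red points are 4-OHT and blue points, set lower in each row, vehicle. Adcy3, Pde1c and Gnal lie apart between the groups, while Cnga4, Slc24a4, Rtp1 and Rtp2 are at 0 in every library.

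Of 21 genes that choose or silence olfactory receptors in the nose, 15 were tested, 10 were lower with 4-OHT and 0 were higher, beside 32.5% and 33.0% of all genes. The edgeR and DESeq2 fits also called 0 higher, as did limma at an unadjusted p under 0.05. With library totals as scaling all 15 were lower, where 6548 of all 11828 genes tested were called lower. Cbx5, which encodes HP1 alpha, had 975.3, 938.3 and 995.1 normalized counts in 4-OHT libraries, against 1708, 1699 and 1628 in vehicle libraries. No library overlapped, with a log2 fold change of -0.79 ± 0.05 (adjusted p = 1.07e-07, limma). The H3K9 methyltransferase genes Suv39h2 and Suv39h1 fell by 0.67 and 0.55 on the log2 scale, the HP1 gene Cbx3 by 0.62 and Lbr, the lamin B receptor, by 0.45. Trim28, Setdb1, Ezh2, Atf5 and Ehmt2 were lower by smaller amounts, with log2 fold changes between -0.40 and -0.18. Eed, Kdm1a, Cbx1, Ldb1 and Ehmt1 were not called. Of the factors that switch receptor genes on in the neuron, Lhx2 had 4 reads in the 4-OHT libraries together and 9 in the vehicle libraries together, Ebf1 had 1 and 3, and Ebf2 and Ebf4 had 0 reads. Their part in the values of the 29 receptor genes was not tested.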

How the data were processed

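Messenger RNA libraries of 3 samples given 4-OHT and 3 given vehicle were analysed. The submitters' processing notes name Trimmomatic 0.35, STAR 2.5.1b, RSEM and DESeq2 1.18.1 and build GRCm38, with no role for each; the handling of strand and of reads shared between genes is not given in the sources used here. The deposited signal per gene is a count divided by a size factor: in each column 100% of values are whole multiples of a single step within 1e-06, and dividing by the step gave reads. The step of vehicle B, 0.989, is close to 1, so its recovery is less certain. The deposited log2 fold change and p-value columns are the authors', per the file headers.

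Genes past edgeR 4.0.16 filterByExpr (minimum count 10) were tested with limma 3.58.1 in R 4.3.3 (mean-variance trend, log2(value + 1), two-sided, Benjamini-Hochberg, threshold 0.05). Because 20 of 29 members failed that filter, the fit was repeated over genes with a sum of 5 or more. Alternatives were no filter, pseudocounts of 0.5 and 4, other scalings, edgeR, DESeq2 1.42.0, a replicate block and leaving out each library. An expressed gene is a gene past the filter whose symbol does not begin with Olfr. Coordinates are the table's, and strand and exons come from GENCODE M21, which places all 29 members identically. Per-kb levels use exon length and suit comparison between genes only roughly. Members' sequences were cut into windows of 75 bases and looked up in all transcripts. Promoters are RefSeq's. Floors stand for 3 reads over a group, and intervals are at 95% and cover counting error only.

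Members with values are those past the filter, the 12 most abundant, and those with 10 or more reads whose groups do not overlap, with their overlapping and nearest expressed neighbours; of each list, the called genes. The values of 1 signalling gene are not reported here. Members, lists and rules were chosen with earlier results of these data known.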

Additional observations from a re-analysis of the deposited data

How the results depend on the processing

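Across alternatives with all 6 libraries, 88 of 108 counts stayed within 1.5 times of the reported count, and 168 of 170 values of single members kept their direction and call. With 1 library left out these were 59 of 66 and 154 of 174. The counts include the list of transport and neuron markers, with 0 genes tested under the filter, so its 0 calls there could not move. Members called higher numbered 6 in the reported fit, 13 with no filter, 13 over genes with a sum of 5 or more and 12 with edgeR over those, where more members are tested; members called lower were 2 with library totals, the second being Olfr933 (-0.40). Signalling genes called lower were 3 with library totals, 0 with DESeq2, 2 with edgeR over genes with a sum of 5 or more, and 1 to 2 with a library left out. For transport and neuron markers 1 (Cbr2) was called lower with no filter, over genes with a sum of 5 or more, and with edgeR over those. Of accessory proteins, called lower were 0 with no filter, a pseudocount of 0.5, TMM, edgeR, DESeq2 or a sum of 5 or more, 5 with library totals, and 0 to 2 with a library left out; called higher were 1 to 2. The count of members with an expressed neighbour was 1 for overlap alone and 14 within 50 kb. Within 50 kb 10 of 14 pairs had the same sign, with H2-M3 shared by several pairs. The count of members was 6 with expressed genes at 10 CPM or more. There 2 in place of 4 had such a gene upstream or overlapping on the same strand. The cause of these shifts was not tested, except where more genes or a wider distance enter. Samples of the same letter had correlated deviations of 0.109, 0.036 and 0.12 (A, B and C), too low for pairing at B, though every sample correlated best with its own letter; with the letter as a replicate block 6 members were called higher and 1 lower, 6 signalling genes higher and 1 lower, and 11 regulators lower, and no other call count moved. Low counts limit the precision of 14 members with a sum under 20. Fits over genes with a sum of 5 or more under other scalings and the block were chosen after seeing the data.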

Other observations

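Other chemoreceptor families were also nearly silent by the same threshold of 5. For pheromone receptors, 1 of 319 Vmn1r rows and 4 of 227 Vmn2r rows reached it, and the Vmn2r rows at threshold were Vmn2r-ps139, Vmn2r8, Vmn2r-ps159 and Vmn2r96. Reads of the whole Vmn1r family came to 3 in 4-OHT libraries and 10 in vehicle libraries, and those of the Vmn2r family to 121 and 60. Of the 16 trace amine receptor rows, Taar5, the trimethylamine receptor, reached the threshold, and the family had 19 reads in 4-OHT libraries and 2 in vehicle libraries. Of 43 taste receptor rows, Tas1r3, a subunit of the sweet and umami receptors, and Tas2r138, a bitter receptor, reached it, with 69 reads in 4-OHT libraries and 21 in vehicle libraries for the families together. These sums have no test and were read after the values of the olfactory receptors were known.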
